A study of Mus musculus with 8 samples.

Results

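The 40 genes described here encode Polycomb and trithorax group proteins, out of 21887 protein-coding genes with a place on the nuclear chromosomes. They were taken by name and fall into 4 classes, with 10 genes of Polycomb repressive complex 2 (PRC2), 15 of Polycomb repressive complex 1 (PRC1), 10 of the histone H3 lysine 4 (H3K4) methyltransferase complexes and 5 histone demethylases. A gene counted as detected in a library when a peak overlapped a window reaching 1 kb to either side of either gene end, by at least 1 bp. The mark measured was H3K9ac, histone H3 acetylated at lysine 9, which is typical of active promoters, by chromatin immunoprecipitation and sequencing in cerebella of C57BL/6 mice at 9 weeks of age. The knock-in group had 4 libraries from heterozygous 266Q mice, in which 1 allele of Atxn7 carries an expanded glutamine tract at the endogenous locus and the other allele is wild type. The wild type group had 4 libraries from littermates without the expansion, of the same strain and age. The design text calls the knock-in mice symptomatic for spinocerebellar ataxia type 7 (SCA7), and whole cerebellum was used, so all cell types of the tissue were pooled.

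PRC2 methylates H3 at lysine 27 through its catalytic subunits EZH1 and EZH2, and PRC1 ubiquitinates histone H2A through RING1 and RNF2. Trithorax group H3K4 methyltransferases counter this repression at active and poised promoters, and demethylases of the KDM5 and KDM6 families remove methyl groups from H3 lysine 4 and lysine 27. Neurons use the Polycomb complexes to keep genes of other lineages silent. Ataxin-7 belongs to SAGA, a coactivator complex that acetylates histone H3.

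The results turned on where the deposited peaks lay relative to each promoter, and 6 promoters are shown for this reason. Each window runs from 250 bases before to 50 bases after the annotated start, 5′ to 3′ on the strand of the gene, from RefSeq on GRCm38.p6 (the mm10 assembly), and capitals mark CpG dinucleotides. Rnf2 (chr1:151500942-151501241, minus strand) and Kdm5b (chr1:134559928-134560227, plus strand) were among the members found in most libraries. Kdm6a (chrX:18162325-18162624, plus strand) and Kmt2d (chr15:98871156-98871455, minus strand) have an annotated start inside the outermost gene ends. Kmt2c (chr5:25498734-25499033, minus strand) had the highest GC share of the members and Rbbp5 (chr1:132477117-132477416, plus strand) had no peak anywhere.
Rnf2: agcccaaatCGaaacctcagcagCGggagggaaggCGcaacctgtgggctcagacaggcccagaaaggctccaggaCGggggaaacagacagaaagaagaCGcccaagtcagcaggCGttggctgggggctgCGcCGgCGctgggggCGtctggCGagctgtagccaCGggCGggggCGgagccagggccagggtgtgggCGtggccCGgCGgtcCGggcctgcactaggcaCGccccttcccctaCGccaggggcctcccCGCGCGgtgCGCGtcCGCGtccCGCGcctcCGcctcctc
Kdm5b: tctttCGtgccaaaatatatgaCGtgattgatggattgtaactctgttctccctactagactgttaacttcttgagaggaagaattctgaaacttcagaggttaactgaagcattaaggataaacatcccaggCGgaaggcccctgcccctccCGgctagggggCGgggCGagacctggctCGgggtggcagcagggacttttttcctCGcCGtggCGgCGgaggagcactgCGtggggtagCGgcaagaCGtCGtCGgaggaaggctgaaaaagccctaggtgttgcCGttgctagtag
Kdm6a: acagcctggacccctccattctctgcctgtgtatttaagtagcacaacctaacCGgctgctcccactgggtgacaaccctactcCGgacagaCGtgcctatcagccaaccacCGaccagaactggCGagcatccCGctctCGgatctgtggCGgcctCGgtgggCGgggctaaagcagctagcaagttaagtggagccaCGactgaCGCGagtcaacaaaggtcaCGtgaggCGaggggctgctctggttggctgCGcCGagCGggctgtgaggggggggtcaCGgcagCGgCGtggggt
Kmt2d: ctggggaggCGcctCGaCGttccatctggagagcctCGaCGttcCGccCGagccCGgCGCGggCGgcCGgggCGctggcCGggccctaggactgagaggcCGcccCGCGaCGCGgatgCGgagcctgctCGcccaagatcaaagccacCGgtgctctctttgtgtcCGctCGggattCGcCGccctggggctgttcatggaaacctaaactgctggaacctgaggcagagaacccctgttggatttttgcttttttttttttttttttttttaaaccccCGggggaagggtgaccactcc
Kmt2c: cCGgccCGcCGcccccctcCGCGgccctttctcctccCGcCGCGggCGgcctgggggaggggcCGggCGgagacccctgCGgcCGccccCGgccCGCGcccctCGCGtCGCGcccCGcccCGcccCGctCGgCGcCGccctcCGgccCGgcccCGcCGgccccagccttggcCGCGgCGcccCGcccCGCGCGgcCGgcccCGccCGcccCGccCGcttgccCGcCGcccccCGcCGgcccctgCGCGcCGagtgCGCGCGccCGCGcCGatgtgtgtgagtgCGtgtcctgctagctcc
Rbbp5: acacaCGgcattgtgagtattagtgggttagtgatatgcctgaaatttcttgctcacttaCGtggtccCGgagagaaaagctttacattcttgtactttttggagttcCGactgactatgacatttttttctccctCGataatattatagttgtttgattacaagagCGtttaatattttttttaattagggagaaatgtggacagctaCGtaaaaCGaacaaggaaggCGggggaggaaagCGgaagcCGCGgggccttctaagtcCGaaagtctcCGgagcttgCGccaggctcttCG

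The RefSeq table held promoters of 32 of the 40 members, with 41 windows in all. Pcgf1, Cbx2, Kmt2b, Kmt2e, Setd1b, Ash2l, Kdm5a and Kdm6b were not matched. The median GC share of the members' windows was 66.0%, against 56.3% over 21263 windows of all genes. The median ratio of observed to expected CpG was 0.833 for members and 0.567 for all genes. Windows of all genes with a peak at a start in replicates 1 and 2 of both genotypes had a median GC share of 65.3% and a ratio of 0.824, and those of genes with no peak at a start 50.3% and 0.265. Kmt2c had 56 CpG dinucleotides and a GC share of 88.0%, Rnf2 30 and 72.7%, Kmt2d 27 and 62.7%, Kdm6a 21 and 63.0% and Kdm5b 17 and 54.7%. Rbbp5 had 16 CpG dinucleotides, a GC share of 44.0% and a ratio of 1.13. Its window was therefore poor in GC and not depleted of CpG.

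Strings of 8 motifs were searched on both strands, each counted on its own even where matches of different motifs overlapped. The Sp1 string GGGCGG was in 65.9% of the members' windows and 46.2% of all windows. CCAAT was in 36.6% and 38.2%, the E-box CACGTG in 19.5% and 7.84%, and the TATA string TATAAA in 2.44% and 12.6%. The ETS string CCGGAAG was in 2.44% and 11.6%, the YY1 string AAGATGGCG in 7.32% and 1.83%, the NRF1 string in 2.44% and 1.33%, and the CRE string TGACGTCA in 2.44% and 2.23%. Windows of all genes with a peak at a start in replicates 1 and 2 of both genotypes were counted too. They held the Sp1 string in 69.8%, CCAAT in 32.5%, the E-box in 9.76% and the TATA string in 5.38%. The ETS string was in 13.6% of them, YY1 in 3.09%, NRF1 in 2.22% and CRE in 3.16%. Of the members' 41 windows, 8 held the E-box, 3 the YY1 string and 1 each the ETS, NRF1, CRE and TATA strings. Of the 6 windows shown, all but that of Rbbp5 held the Sp1 string, and that of Kdm6a also held the E-box.

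Libraries are named by genotype and replicate number, as in knock-in 1. Knock-in 1 to 4 had 10607, 11268, 5571 and 1266 peaks, and wild type 1 to 4 had 11409, 7735, 3249 and 1571. Median peak width was 1065 to 1246 bp in replicates 1 and 2 of both genotypes, called the long lists below, and 132 to 148 bp in replicates 3 and 4, called the short lists. The lists carry no read depth, and values within each pair of lists are given beside the pooled ones. Markers of granule cells, the main neuronal type of the cerebellum, had a peak at 10 and 10 of 10 genes in long knock-in lists and at 10 and 9 in long wild type lists, and no library had one at any of 5 liver markers. Of 6 Purkinje cell markers, 2 and 3 had a peak in long knock-in lists and 1 and 2 in long wild type lists, and the defining markers Pcp2, Car8 and Ppp1r17 had none in any library. No astrocyte or microglia marker (5 each) had a peak, Mbp was the 1 oligodendrocyte marker with one, and Kdr the 1 vascular marker. In whole tissue, fewer cells of a type and less acetylation per cell cannot be told apart.

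Most Polycomb and trithorax genes carried an H3K9ac peak in the long lists of both genotypes. Of the 40, 34, 34, 15 and 1 had one in knock-in 1 to 4, against 33, 31, 5 and 1 in wild type 1 to 4. As a share this was 52.5 ± 40.2% for knock-in libraries and 43.75 ± 42.1% for wild type libraries (SD, n = 4 each), a difference smaller than an SD that pools long and short lists. The single shares were 85.0, 85.0, 37.5 and 2.5% in knock-in 1 to 4, against 82.5, 77.5, 12.5 and 2.5% in wild type 1 to 4, so no knock-in share lay below that of the same-numbered wild type library. Over all genes they were 39.1, 36.2, 10.4 and 0.896% in knock-in 1 to 4, against 31.9, 27.8, 5.43 and 1.46% in wild type 1 to 4. Over all genes the share was 21.7 ± 18.9% in knock-in libraries and 16.6 ± 15.4% in wild type libraries (SD, n = 4 each). Within the long lists the members' mean share was 85.0% in knock-in lists and 80.0% in wild type lists, against 37.7% and 29.8% over all genes. Within the short lists it was 20.0% in knock-in lists and 7.5% in wild type lists.

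The members were found in the long lists more widely than genes at large. All 4 long lists held a peak at 28 of 40 members (70.0%) and at 5008 of 21887 genes (22.9%). No library held one at 3 members (7.5%), Cbx7, Ash2l and Rbbp5, against 55.0% of all genes. By class, 9 of 10 PRC2 genes, 11 of 15 PRC1 genes, 6 of 10 H3K4 methyltransferase genes and 2 of 5 demethylases were in all 4 long lists. At least 6 libraries held 5 members (12.5%), namely Rnf2, Ring1, Pcgf6, Setd1b and Kdm5b, against 4.42% of all genes.

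**Figure D1:**
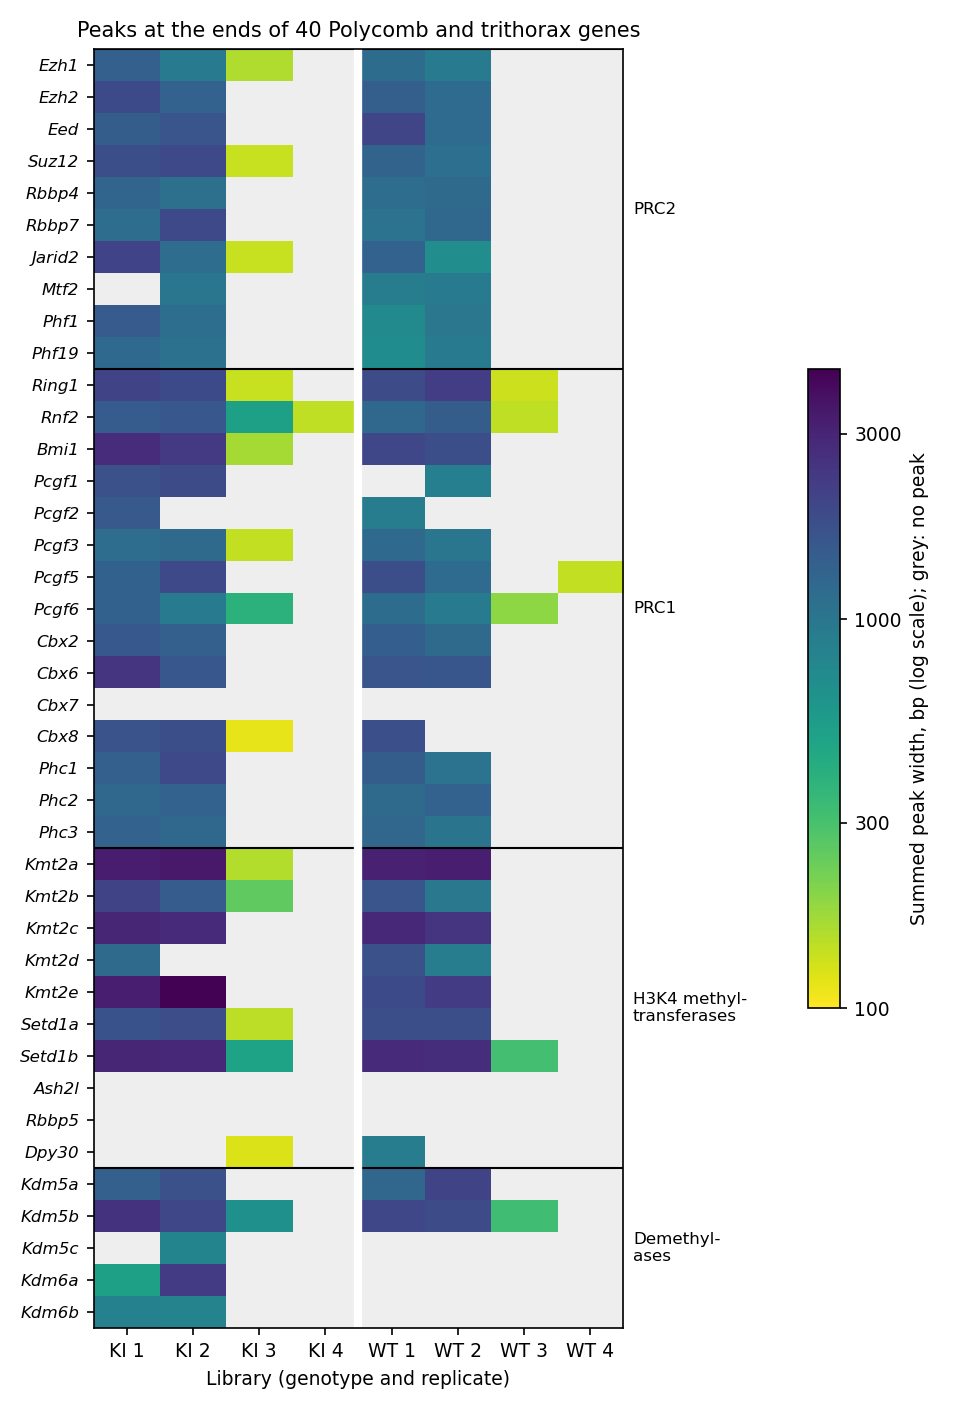
Summed width of the peaks at the ends of each of the 40 genes (rows, by class) in each library (columns, knock-in 1 to 4 then wild type 1 to 4), on a log colour scale in bp, with grey for no peak. Filled cells crowd replicates 1 and 2 of both genotypes, and replicate 4 of each genotype has 1 filled cell.

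No member passed the test of detection between genotypes. The test was a two-sided conditional exact test, which takes as given how many libraries hold a gene and allows for the length of each list, adjusted by Benjamini-Hochberg over all genes. It called 0 of 9826 genes (0%), and 90 (0.916%) had an unadjusted p under 0.05. Of the 37 members tested, 0 were called and 0 had an unadjusted p under 0.05. Fisher's exact test also called 0 genes, but its smallest p over all genes was 0.143, so it could call none. The conditional exact test was limited too. A gene in both long knock-in lists and no other list, such as Kdm6a, had a conditional exact p of 0.501. A count of 0 members therefore does not show that detection was alike.

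Members in more knock-in than wild type libraries outnumbered the reverse, as did genes at large. Of the 37 members with a peak, 14 (37.8%) were in more knock-in libraries, against a background of 48% of 9851 genes. In the other direction 3 (8.11%) were in more wild type libraries, against a background of 11.6%, and 20 were found equally often. A difference of 2 or more libraries in favour of knock-in was seen for 3 members (8.11%), against 8.78% of all genes, and in favour of wild type for 0 members, against 0.67%. These shares of members lay near those of all genes or below them.

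**Figure D2:**
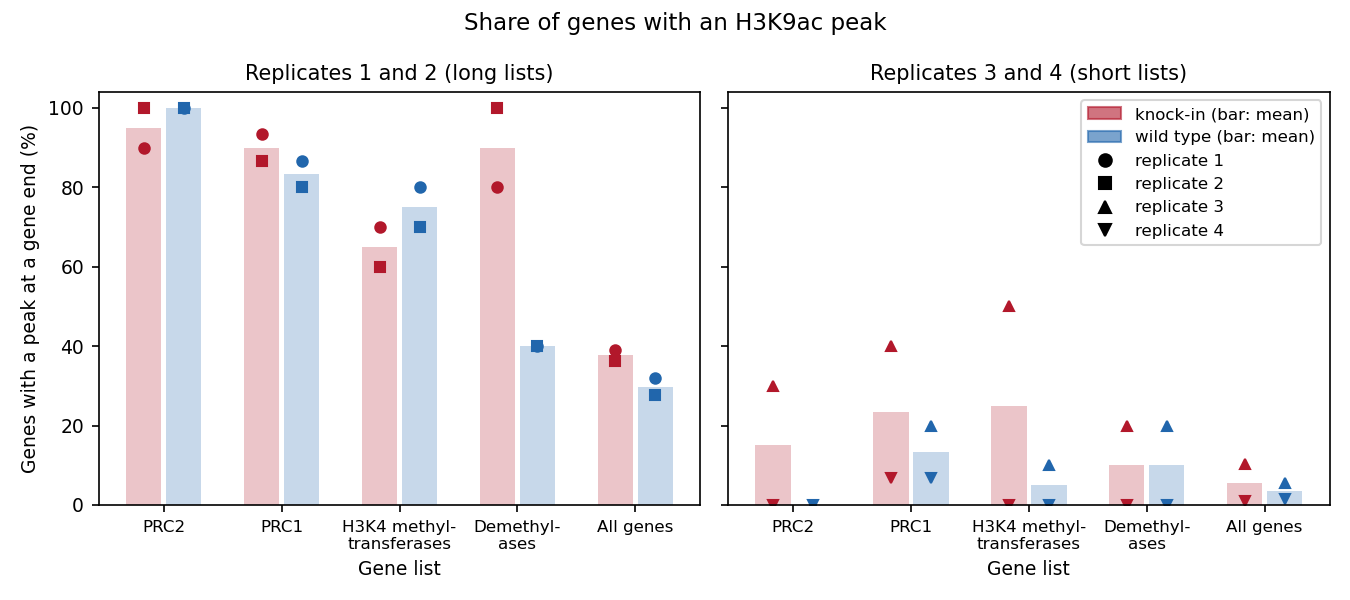
Share of genes with a peak at a gene end (%), by class and over all 21887 genes, with knock-in left of wild type; bars are means of the pair of libraries and points are single libraries. In the long lists PRC2 genes reached 90 to 100% in both genotypes, demethylases 80 and 100% in knock-in against 40 and 40% in wild type, and all genes 27.8 to 39.1%.

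PRC2 core and accessory genes had a peak in nearly every long list. Of the 10, 9, 10, 3 and 0 had one in knock-in 1 to 4, against 10, 10, 0 and 0 in wild type 1 to 4. The mean share was 55.0 ± 48.0% in knock-in libraries and 50.0 ± 57.7% in wild type libraries (SD, n = 4 each), and 95.0% and 100% within the long lists. Ezh1, a catalytic subunit, had peaks of 1383, 932 and 157 bp in knock-in 1 to 3, against 1148 and 906 bp in wild type 1 and 2. Suz12, a core subunit needed for the complex to hold together, had 1784, 1915 and 137 bp in knock-in 1 to 3, against 1327 and 1109 bp in wild type 1 and 2. In both genes the third knock-in library was the only short list with a peak.

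Jarid2, a DNA-binding accessory subunit, had 2051, 1132 and 137 bp in knock-in 1 to 3, against 1338 and 690 bp in wild type 1 and 2. The peaks in knock-in 2, knock-in 3 and wild type 2 did not reach the gene itself. Wild type 1 also had a peak of 2148 bp within 1 kb of an annotated start of Jarid2, which the end windows did not count. Mtf2, which recruits PRC2 to CpG-rich DNA, had a peak of 997 bp in knock-in 2 only, against 895 and 931 bp in wild type 1 and 2. With 1 knock-in and 2 wild type libraries it had the smallest conditional exact p of the class, 0.195, with an adjusted p of 1.00. The other 6 PRC2 genes, Ezh2, Eed, Rbbp4, Rbbp7, Phf1 and Phf19, were each in the long lists of both genotypes and in no short list.

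PRC1 genes included the members found in most libraries. Of the 15, 14, 13, 6 and 1 had a peak in knock-in 1 to 4, against 13, 12, 3 and 1 in wild type 1 to 4. The mean share was 56.7 ± 40.9% in knock-in libraries and 48.3 ± 40.9% in wild type libraries (SD, n = 4 each), and 90.0% and 83.3% within the long lists. Rnf2 (chr1:151469398-151500991), a ubiquitin ligase of the complex, had summed widths of 1453, 1571, 512 and 143 bp in knock-in 1 to 4, against 1221, 1452 and 143 bp in wild type 1 to 3. It was the 1 member in 7 libraries, with a conditional exact p of 0.385 (1.00 after adjustment). Ring1, the other ligase, had 2034, 1889 and 138 bp in knock-in 1 to 3, against 1845, 2206 and 134 bp in wild type 1 to 3. Both ligase genes thus had a peak within 1 kb of a gene end in replicates 1 to 3 of both genotypes. The Ring1 peak in knock-in 3 did not reach the gene itself.

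Pcgf6, the Pcgf protein of a germline gene silencing variant of PRC1, had 1353, 926 and 389 bp in knock-in 1 to 3, against 1162, 929 and 189 bp in wild type 1 to 3. Bmi1, the Pcgf protein of canonical PRC1, had 2736, 2300 and 167 bp in knock-in 1 to 3, against 1973 and 1774 bp in wild type 1 and 2. Pcgf3 had 1146, 1188 and 141 bp in knock-in 1 to 3, against 1214 and 995 bp in wild type 1 and 2. These Pcgf genes were in all long lists, and only Pcgf6 was in a short wild type list. Pcgf5 had 1359 and 1905 bp in knock-in 1 and 2, against 1780, 1176 and 142 bp in wild type 1, 2 and 4, with a conditional exact p of 0.222 (1.00 after adjustment).

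Cbx8, a chromodomain subunit that reads methylated H3 lysine 27, had the smallest p of all members. Its summed widths were 1682, 1785 and 115 bp in knock-in 1 to 3, against 1759 bp in wild type 1, where 2 peaks made up the sum. The start peak in wild type 1 was 1040 bp, and the other peak there did not reach the gene. The gene (chr11:119036303-119040913) was thus in 3 knock-in libraries and 1 wild type library. The conditional exact p of this difference was 0.0533, or 1.00 after adjustment. Over the alternatives that gave a value the unadjusted exact p ran from 0.0385 to 1.00 and the adjusted one was 1.00 each time. The unadjusted exact p was 0.0437 without wild type 1 and 1.00 without knock-in 3 or without wild type 2.

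Genes of the H3K4 methyltransferase complexes were found less evenly. Of the 10, 7, 6, 5 and 0 had a peak in knock-in 1 to 4, against 8, 7, 1 and 0 in wild type 1 to 4. The mean share was 45.0 ± 31.1% in knock-in libraries and 40 ± 40.8% in wild type libraries (SD, n = 4 each), and 65.0% and 75.0% within the long lists. Setd1b, a SET1-type methyltransferase, had 2935, 2883 and 493 bp in knock-in 1 to 3, against 2801, 2669 and 308 bp in wild type 1 to 3. Its paralog Setd1a had 1708, 1788 and 146 bp in knock-in 1 to 3, against 1770 and 1782 bp in wild type 1 and 2. The 4 long lists gave Setd1a nearly the same width, and the short wild type lists did not hold it.

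Kmt2a, the trithorax homolog MLL1, had 3234, 3418 and 154 bp in knock-in 1 to 3, against 3118 and 3199 bp in wild type 1 and 2. Kmt2b, its close paralog, had 2023, 1465 and 253 bp in knock-in 1 to 3, against 1622 and 961 bp in wild type 1 and 2. Both were in every long list and in knock-in 3. Kmt2d, an enhancer H3K4 methyltransferase, had 1192 bp in knock-in 1 only, against 1726 and 886 bp in wild type 1 and 2. With 1 knock-in and 2 wild type libraries it had a conditional exact p of 0.195, the smallest of the class, and an adjusted p of 1.00.

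Demethylase genes showed the widest gap between genotypes within 1 kb of gene ends, which did not hold under several other ways of counting. Of the 5, 4, 5, 1 and 0 had a peak in knock-in 1 to 4, against 2, 2, 1 and 0 in wild type 1 to 4. Their mean share was 50.0 ± 47.6% in knock-in libraries and 25.0 ± 19.1% in wild type libraries (SD, n = 4 each), and 90.0% and 40% within the long lists. Within the short lists it was 10.0% in both, where H3K4 methyltransferase genes stood at 25.0% in knock-in lists and 5.0% in wild type lists. The gap of 25.0 percentage points was 5.0 with a window of 3 kb (10.0 for PRC1), 5.0 in the better-scored 50% of each list (10.0 for PRC2) and 5.0 over whole genes (10.0 for PRC1). Kdm5b, which removes methyl groups from H3 lysine 4, had 2543, 1976 and 658 bp in knock-in 1 to 3, against 1972, 1855 and 319 bp in wild type 1 to 3. Kdm5a, of the same family, was in the long lists of both genotypes. Kdm5c, its X-linked relative, had a peak in knock-in 2 only, of 801 bp and at the 34.1 percentile of that list by the authors' score.

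Besides Kdm5c, the gap lay in Kdm6a and Kdm6b, which encode the H3 lysine 27 demethylases UTX and JMJD3. Both had a peak at a gene end in both long knock-in lists and in no wild type list, each with a conditional exact p of 0.501 (1.00 after adjustment). Of 32 members in both long knock-in lists, these 2 (6.25%) were in no long wild type list, against a background of 10.4% of 7100 genes. In the other direction 0 of 30 members were in both long wild type lists and no long knock-in list, against 0.732% of 5331 genes. At the whole genes, both genotypes had peaks in their long lists.

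Kdm6a (chrX:18160862-18279936) carried a peak at its annotated start in all 4 long lists. These peaks were 1304 and 2261 bp wide in knock-in 1 and 2, against 1343 and 1406 bp in wild type 1 and 2. The annotated start lies inside the outer gene end, so that a peak there reaches the end window only if it extends far upstream. In knock-in 1 a separate peak of 515 bp upstream of the start overlapped that window by 14 bp, and in knock-in 2 the start peak overlapped it by 53 bp. The wild type peaks began 15 and 133 bp downstream of the start. By the annotated start, Kdm6a was thus in 2 libraries of each genotype, with a conditional exact p of 1.00.

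Kdm6b (chr11:69398508-69420367) held several peaks inside the gene in every long list. Knock-in replicates 1 and 2 had 5 and 5 peaks in or within 1 kb of it, with summed widths of 7874 and 7586 bp, against 4 and 3 peaks with 6372 and 3913 bp in wild type 1 and 2. The peaks at its end in knock-in were weak within their lists, at score percentiles 7.23 and 19.3, and also fell in the window of the neighbouring gene Dnah2. Over whole genes with 1 kb to either side, 0 members were in both long knock-in lists and no long wild type list, against a background of 8.96% of genes, and 0 the reverse, against 0.815%. At annotated starts both counts were also 0, against 9.91% and 0.708%. X-linked members were Rbbp7, Kdm5c and Kdm6a, and the labels give no sex. Of 4 Y-linked genes looked up after these values were seen, Eif2s3y had a peak in the lists knock-in 2 and wild type 1, while Kdm5d, Uty and Ddx3y had none. The part of sex in these results was not tested.

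**Figure D3:**
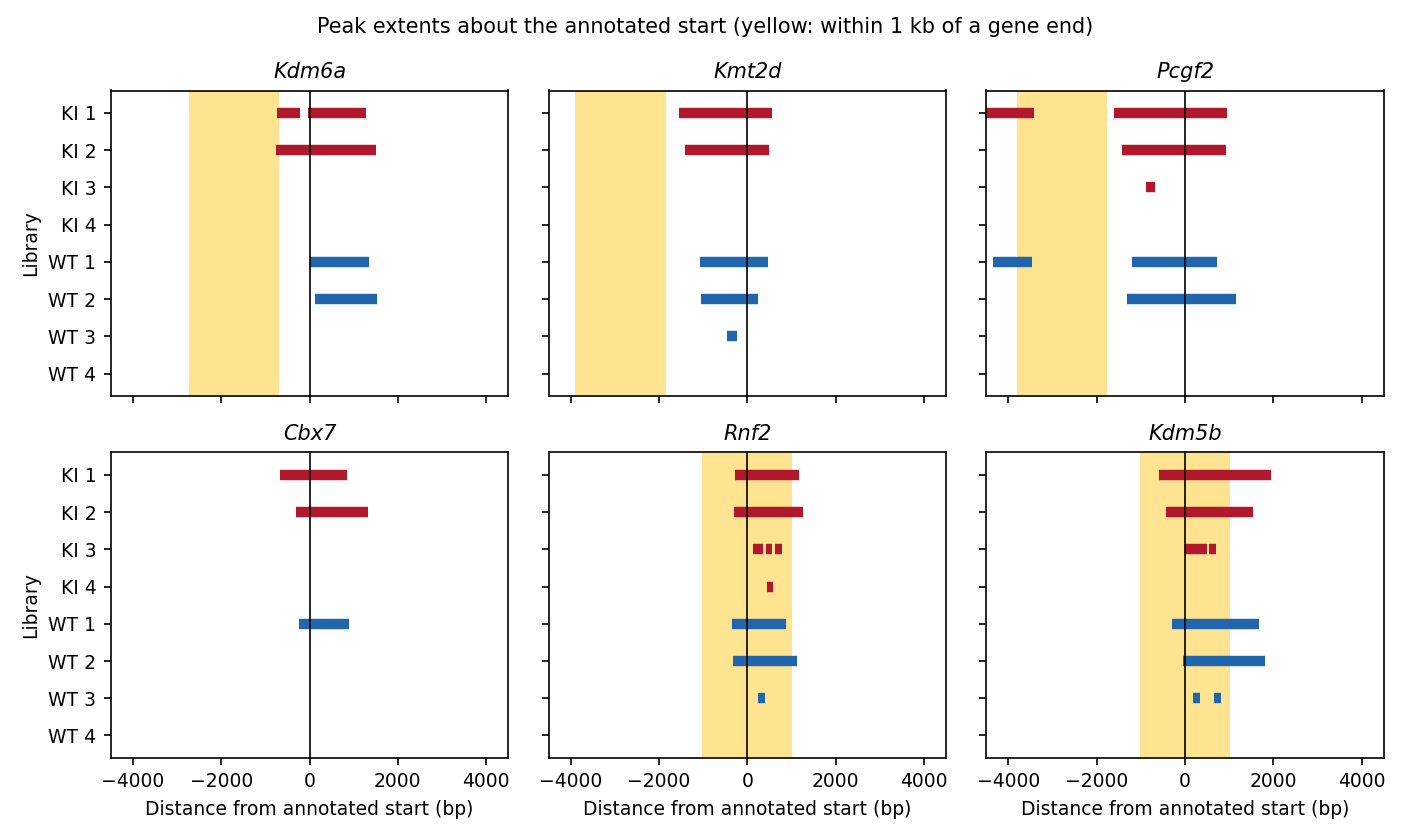
Extent of each peak (bars; red, knock-in 1 to 4 above; blue, wild type 1 to 4 below) against distance from the annotated start in bp, downstream to the right, for 6 members, with windows of 1 kb around a gene end in yellow. In Kdm6a, Kmt2d, Pcgf2 and Cbx7 the peaks over the start lie mostly outside the yellow windows, and in Rnf2 and Kdm5b inside them.

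Internal starts also bore on the counts of other members. In all, 9 members were in more libraries by the whole gene than by its ends, namely Jarid2, Pcgf2, Cbx7, Phc2, Kmt2d, Ash2l, Dpy30, Kdm6a and Kdm6b. At the annotated start Kmt2d had peaks of 2114 and 1908 bp in knock-in 1 and 2, against 1534, 1288 and 224 bp in wild type 1 to 3. Its peaks at a gene end lay at the far end, in a window shared with Prkag1. Kmt2d therefore had a start peak in every long list, and its difference at the gene ends concerned the far end only.

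Pcgf2, a Pcgf protein of canonical PRC1, had start peaks of 2548, 2354 and 214 bp in knock-in 1 to 3, against 1929 and 2464 bp in wild type 1 and 2. At its ends it had counted in knock-in 1 and wild type 1 only, through peaks that lay in the window of Psmb3 and did not reach Pcgf2 itself. Cbx7, a chromodomain subunit of PRC1, had start peaks of 1515 and 1643 bp in knock-in 1 and 2, against 1123 bp in wild type 1, and none at its outer ends. Dpy30, a shared subunit of the H3K4 methyltransferases, has an outer annotated start and a group of inner ones several kb away. Peaks of 1320 bp in knock-in 1 and 1063 bp in wild type 2 lay over the inner starts. Peaks of 122 bp in knock-in 3 and 900 bp in wild type 1 lay upstream of the outer start and did not reach the gene. Ash2l, another shared subunit, had 1 internal peak in each long list, of 1355 and 887 bp in knock-in 1 and 2, against 1172 and 1779 bp in wild type 1 and 2. Rbbp5, a further shared subunit, was the 1 member with no peak in or within 1 kb of the gene in any library.

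With peaks inside genes counted, the members with a peak numbered 37, 38, 16 and 2 of 40 in knock-in 1 to 4, against 37, 36, 7 and 2 in wild type 1 to 4. All 4 long lists held 33 members (82.5%), against 26.9% of all genes. At annotated starts, all 4 long lists held 26 of 32 members (81.2%), against 24.4% of 17492 genes. The demethylases counted in this way were 2 of 3 in all long lists, since Kdm6a joined Kdm5b and Kdm5c did not. The conditional exact test called 0 of 8074 genes by starts and 0 of 11436 over whole genes, members included.

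Where a member with a single annotated start had a peak there, its centre mostly lay downstream of the start. Such members numbered 25 and 26 in knock-in 1 and 2, and 25 and 23 in wild type 1 and 2. Their median distance from start to centre was 263 and 142 bp in knock-in 1 and 2, against 294.5 and 335.5 bp in wild type 1 and 2. Over all genes with a single annotated start it was 231 and 225 bp in the long knock-in lists, against 251.5 and 247 bp in the long wild type lists. In Kmt2d, Pcgf2 and Kmt2a the start peak, and in Jarid2 the peak at the gene end, was centred upstream in all 4 long lists. The centres for Kmt2d stood at -486.5 and -458.5 bp (upstream) in knock-in 1 and 2, against -294.5 and -409.5 bp in wild type 1 and 2.

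The short lists marked a subset of the same places. They held 29 peaks at 16 members, of 61 to 497 bp with a median of 146 bp, and all 29 overlapped a long-list peak of the same gene. At gene ends, knock-in replicate 3 held 15 members and wild type 3 held 5, all of them also in knock-in 3. Those 5 were Ring1, Rnf2, Pcgf6, Setd1b and Kdm5b. At annotated starts, knock-in 3 held 14 of 32 members and wild type 3 held 6. Of the latter, Kmt2d with 224 bp and Phc2 with 117 bp were not in knock-in 3. Of the 28 members in all long lists, 14 (50.0%) also had a short-list peak, against 48.8% of all genes in all long lists. Those 14 had a median mean score percentile of 81.8 and the other 14 one of 62.5. Neither these percentiles nor the overlap of short-list with long-list peaks was computed over all genes.

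Of the 28 members in all long lists, the 4 with the largest summed widths of peaks at gene ends were in the H3K4 methyltransferase class. Kmt2a averaged 3242 bp over the 4 lists and was wider than 97.7% of 5008 genes, Kmt2e, a relative with a SET domain, 2912 bp (96.6%), Setd1b 2822 bp (96.0%) and Kmt2c, an enhancer methyltransferase, 2767 bp (95.7%). These 4 were the members wider than 90% of genes. For Kmt2c the 2484 bp in wild type 2 was the sum of 2 peaks. Its start peak there was 1344 bp, and the other peak did not reach the gene. The median over the class was 2795 bp for 6 H3K4 methyltransferase genes, 1841 bp for 2 demethylases, 1424 bp for 11 PRC1 genes and 1303 bp for 9 PRC2 genes, against 1437 bp over all genes. Setd1a with 1762 bp and Kmt2b with 1518 bp were the narrowest of the methyltransferase genes.

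In PRC1 the widest were Bmi1 with 2196 bp and Ring1 with 1993.5 bp, and the narrowest Pcgf6 with 1092.5 bp and Pcgf3 with 1136 bp. In PRC2 the widest were Eed, the subunit that binds methylated H3 lysine 27, with 1554.5 bp, and Suz12 with 1534 bp. The narrowest were the accessory genes Phf19 with 965 bp, wider than 5.51% of genes, and Phf1 with 1079 bp. Kdm5b averaged 2086.5 bp and Kdm5a 1595.5 bp. Peaks of 12 members also fell in the window of a neighbouring gene, Bmi1 with Commd3, Ring1 with H2-Ke6, Setd1b with Rhof and Kdm5b with Mgat4e among them, so part of a width may belong to that neighbour.

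**Figure D4:**
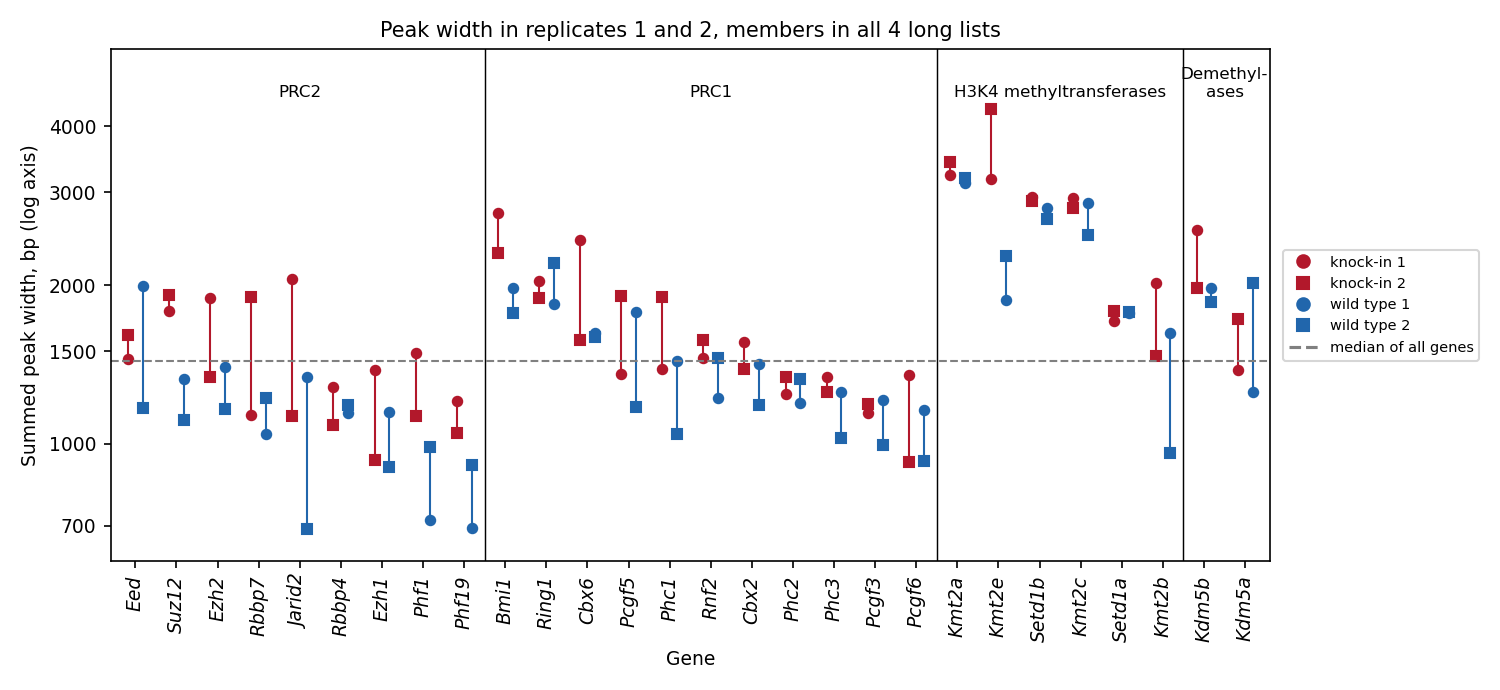
Summed peak width in bp (log axis) of the 28 members in all long lists, by class, with knock-in 1 and 2 (red) left of wild type 1 and 2 (blue); lines join the pair of libraries and the dashed line is the median of 5008 genes, 1437 bp. The red and blue ranges do not overlap in 9 genes, each with the red range above.

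No member passed the test of width between genotypes. A limma test of log2 width in the long lists, centred on the median of each list and adjusted by Benjamini-Hochberg, called 0 of 5008 genes (0%), and 279 (5.57%) had an unadjusted p under 0.05. Of the 28 members, 0 were called and 0 had an unadjusted p under 0.05. With 2 libraries against 2, a count of 0 does not show that widths were alike. Kmt2e had the smallest adjusted p of the members, 0.867 by limma, with 3180 and 4322 bp in knock-in 1 and 2, against 1877 and 2270 bp in wild type 1 and 2. Its centred log2 difference was 0.60 with a standard error of 0.29.

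Widths were larger in the knock-in lists as a whole. Uncentred, 25 members were wider and 3 narrower in knock-in, with a median log2 difference of 0.18, against 0.22 over all genes, of which 3958 were wider and 1050 narrower. Centring the lists left 11 members wider and 17 narrower, with a median of -0.06 against -0.02 over all genes. Both knock-in widths lay above both wild type widths for 9 members (32.1%), against a background of 36.6% of genes. The reverse held for 0 members, against 4.21% of genes. The 9 were Phf1, Phf19, Suz12, Bmi1, Rnf2, Kmt2a, Kmt2e, Setd1b and Kdm5b, and of these Kdm5b, Rnf2, Setd1b and Kmt2a had centred differences below 0.

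By the authors' score, which ranks peaks within a list, the methyltransferase and PRC1 genes stood higher than PRC2. The median score percentile of the members with a peak averaged 71.5 in the long knock-in lists and 72.25 in the long wild type lists, against 59.9 and 61.5 over all genes. It was 90.2 and 79.9 for H3K4 methyltransferase genes, 75.85 and 73.3 for PRC1 genes, and 59.4 and 54.6 for PRC2 genes in long knock-in and long wild type lists. For demethylases it was 49.6 and 77.7, where the knock-in value includes the end peaks of Kdm6a, Kdm6b and Kdm5c that the long wild type lists do not hold.

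Averaged over the 4 long lists, Setd1b stood at percentile 97.9, Kdm5b at 97.8, Bmi1 at 90.4 and Rnf2 at 87.1. The lowest were Rbbp4 at 39.1 and Rbbp7 at 41.2, histone-binding subunits shared with other complexes, and Phf19 at 41.9. Single lists varied, as for Eed, at 16.7 to 71.0, and Rbbp4, at 10.8 to 54.6. A score percentile over 50 in all 4 long lists was seen for 19 of the 28 members, against 58.7% of all genes in all long lists. Ranks from lists of different length can show neither a change between genotypes nor its absence, and they were not tested.

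**Figure D5:**
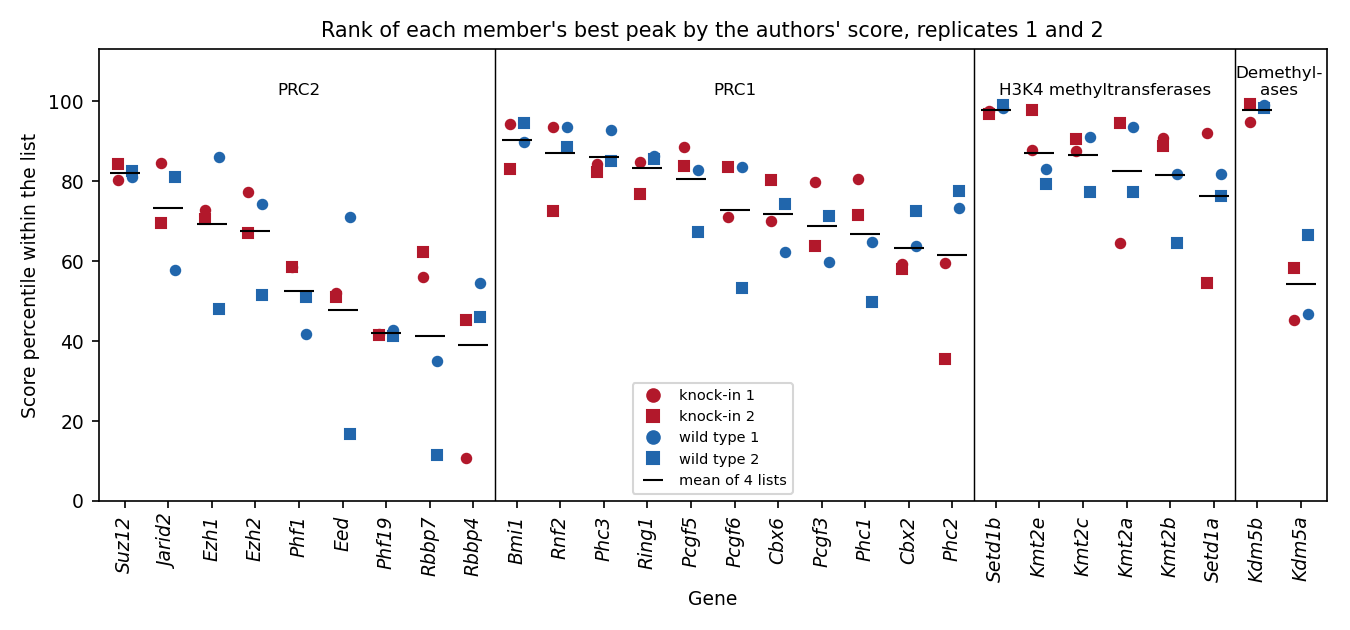
Percentile of each member's best peak by the authors' score within its own list, for the 28 members in all long lists, by class; red, knock-in 1 and 2, left of blue, wild type 1 and 2, and a black bar for the mean. Setd1b and Kdm5b lie at the top, at means of 97.9 and 97.8, and Rbbp4 is lowest at 39.1.

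Partner genes outside the 40 were counted in the same way. Of 26 Polycomb partners, such as the variant PRC1 subunits and the deubiquitinase complex of BAP1, 21, 21, 10 and 0 had a peak in knock-in 1 to 4, against 20, 17, 6 and 1 in wild type 1 to 4. Of the 21 with a peak in any library, more knock-in libraries held 8, and more wild type libraries held 2. Of 18 trithorax partners, such as the WDR5 and menin genes, 18, 15, 7 and 0 had one in knock-in 1 to 4, against 17, 15, 1 and 1 in wild type 1 to 4, and more knock-in libraries held 9 of them, more wild type libraries 3. Over all genes with a peak, 48% were in more knock-in libraries and 11.6% in more wild type libraries. No partner passed the conditional exact test over all genes, and none differed by 3 or more libraries.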

How the data were processed

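Each library had 1 deposited list of H3K9ac peaks. Reads were handled with Bowtie2 on build mm10, per the submitters' processing notes, and peaks were called with MACS in Galaxy for each library on its own, per the file headers. For the version and settings of MACS and for any input control, the sources used here give nothing. The deposited score of each peak was the authors' own, on a scale the files do not name, and served only to rank peaks within a list. The lists hold no read counts, so the depth is unknown, and a deeper library can give a longer list. A start below 0 was set to 0 in 15 of 52676 peaks. Whether replicates are separate animals is not in the labels. The p-values therefore reflect only how these libraries vary, which may be technical.

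Gene ends came from a RefSeq table of GRCm38.p6 that gives no strand, and annotated starts with strand from RefSeq promoter windows of 17492 genes. A window of 1 kb to either side of both ends was used, which can catch a neighbour's peak and miss an internal start, so annotated starts and whole genes with 1 kb to either side were counted too. The conditional exact test took library odds from a Rasch fit over all genes and covered genes in 1 to 7 libraries, at a threshold of 0.05 after Benjamini-Hochberg adjustment. Widths of genes in all 4 long lists were tested with limma 3.58.1 in R 4.3.3 on centred log2 values. Other steps used Python 3.11.15, pandas 2.3.3, numpy 2.4.6 and scipy 1.17.1, and the tests were tested on simulated data. The members, lists and tests were chosen with earlier results of these data known. Described in full were, per class, members with a difference of 2 or more libraries, in 5 or more or in no library, the 2 widest and 2 narrowest, and the smallest p; the others were named where a start lay inside the gene or a count of 5 or fewer called for it, after their values were seen.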

Additional observations from a re-analysis of the deposited data

How the results depend on the processing

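The number of called members was 0 in detection and in width under the alternatives run, which were windows of other sizes, annotated starts, stricter scores, lists cut to the 1266 best peaks, larger overlap, Fisher's exact test, replicates 1 and 2 alone, other scalings of width, and leaving out single libraries. Of these, Fisher's exact test could call no gene, with a smallest p of 0.143. Replicates 1 and 2 alone leave 2 libraries against 2, so neither count of 0 shows stability. The width fits also had at most 2 libraries against 2, so their counts of 0 members do not show stability either. In the main width fit the smallest adjusted p by limma was 0.673 over 5008 genes. Whole genes, replicates 3 and 4 alone and widths at annotated starts were alternatives chosen after seeing the data. Over all genes the conditional exact test called 1 gene without wild type replicate 2, so that leaving out single libraries gave 0 to 1 calls, and the width test gave 0 to 3, with 3 without knock-in replicate 1 and 3 without knock-in replicate 2. The cause was not tested. Where a genotype was left with 1 long list, limma assumed that it varies like the other genotype. The members' median score percentile, averaged over the long lists, was 71.9 among all peaks and 64.5 among gene-end peaks alone. Among gene-end peaks alone, all genes stood at 51.5 in long knock-in lists and 51.0 in long wild type lists. The knock-in minus wild type difference in the members' share was 8.75 percentage points, and -5.0 to 25.4 without single libraries, below 0 without knock-in replicate 1 or 2 or wild type replicate 3 or 4. With lists of equal length it was 1.88 points, at 11.9% in knock-in and 10.0% in wild type. For PRC2 it was 5.0 and -11.7 to 23.3, for PRC1 8.33 and -5.56 to 25.0, for H3K4 methyltransferase genes 5.0 and -8.33 to 20.0, and for demethylases 25.0 and 8.33 to 41.7. The demethylase difference was also 5.0 with a window of 3 kb, 5.0 in the better-scored 50% of each list, 5.0 over whole genes and 0.0 in replicates 3 and 4. Within replicates 1 and 2 it was -5.0 for PRC2 and -10.0 for H3K4 methyltransferase genes, and with lists of equal length -5.0 for PRC1. The labels do not say what shared replicate numbers stand for, and the libraries were not treated as paired. Deviations of same-numbered libraries correlated over genes at 0.0502, 0.114, 0.136 and 0.405, of which 3 of 4 exceed 0.1. Knock-in replicates 2, 3 and 4 correlated best with their own number and knock-in replicate 1 with wild type replicate 2, at 0.0555, while wild type replicates 1 and 3 correlated best with knock-in replicates 2 and 4, at 0.103 and 0.149. Replicates 1 and 2 are the long lists and replicates 3 and 4 the short ones, so sharing by number cannot be told apart from list length. With the replicate number as a block, detection gave 0 calls and width gave 0 calls. Unknown depth limits all values: a gene without a peak in a short list is not shown to lack the mark.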

Other observations

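Inside Jarid2, far from its ends, a region at chr13:44868997-44870195 was looked at after its values were seen. It held peaks of 991, 1199, 163 and 110 bp in knock-in replicates 1 to 4, against 111 bp in wild type replicate 4, and the other wild type lists had no peak there. By the authors' score these peaks stood at percentiles 8.28, 26.2, 89.1 and 88.7 of the knock-in lists, against 73.9 of the wild type list. The difference was not tested, and how often other regions split in this way was not counted. Over whole genes, 8.96% of 8090 genes in both long knock-in lists were in no long wild type list. Counted over the whole gene, Jarid2 had a peak in 4 knock-in libraries and 3 wild type ones.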
